A study of Homo sapiens with 16 samples.

Results

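Of the 5987 GABPα high confidence intervals found by ChIP-seq in VCaP cells treated with androgen, 1959 (32.7%) were also found with vehicle, overlapped no GABPα MACS peak in Jurkat cells and overlapped no ERG high confidence interval of androgen-treated VCaP cells. These 1959 regions were chosen by overlap of at least 1 bp, and they are described here beside the 3375 regions that met the same conditions but did overlap a Jurkat GABPα MACS peak, called Jurkat-shared sites below. The choice was made to give sites bound in VCaP cells only. The data go against that name, since 951 of the 1959 had a Jurkat GABPα interval from a second peak caller, SWEMBL. They are therefore called VCaP GABPα sites without a Jurkat MACS peak.

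GABPα is the DNA-binding subunit of GABP (nuclear respiratory factor 2) and belongs to the ETS family, whose members bind a GGAA core. It works as a complex with GABPβ and is best known for binding near the start sites of widely expressed genes, among them genes of mitochondrial respiration, ribosomes and the cell cycle. ERG, another ETS factor, recognises a closely related sequence and is expressed in VCaP cells from a TMPRSS2-ERG fusion that responds to androgen.

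VCaP is an established human prostate cancer line that expresses the androgen receptor, and Jurkat is an established human T-cell leukaemia line. VCaP cells had been held in charcoal-stripped serum for 48 h and then given methyltrienolone at 1 nM (a synthetic androgen, called R1881) or the same volume of its ethanol vehicle, and the labels also name a t0 sample without saying more about it. For each of GABPα and ERG, there was 1 sample for each of these 3 VCaP conditions and 2 replicates of Jurkat cells, which carry no treatment label. The R1881 and vehicle samples of GABPα were called against 1 shared input, both Jurkat GABPα replicates against another, and the t0 sample against its own. The labels name an ERG antibody whose catalogue number the study's methods give for the androgen receptor, so the ERG target rests on the labels. With 1 sample per VCaP condition, no comparison between conditions has a replicate check and none has a p-value. Shares are given with 95% Wilson intervals, which cover counting error over regions only.

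A MACS peak carries a score, the −log10 of its p-value times 10, with 50 as the lowest value kept. SWEMBL was run on the same reads, and in the GABPα samples a high confidence interval was a SWEMBL interval that overlapped a MACS peak of its own sample. Neighbouring intervals can thus lie in 1 MACS peak and share its score. The 1959 sites lay in 1769 MACS peaks, of which 1592 held 1 site, 165 held 2, 11 held 3 and 1 held 4. They are fewer than 1959 separate binding events.

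Step by step, 5449 of the 5987 intervals (91%) were also found with vehicle, and 2039 of these (37.4%) had no MACS peak in either Jurkat GABPα replicate. A further 80 were set aside because an ERG high confidence interval of R1881-treated cells overlapped them, which left the 1959. Since the choice excluded overlap with a Jurkat MACS peak, a gap to the nearest one was fixed in advance. The gaps given here leave out Jurkat SWEMBL intervals, which overlapped 951 of the sites. The median gap from a site to the nearest Jurkat GABPα MACS peak was 25390 bp (quartiles 10541 and 53784 bp), and 1486 sites (75.9%) were over 10000 bp from one. At the boundary, the 3 sites closest to a Jurkat MACS peak were 43, 208 and 209 bp away, on chromosome 19 from 10868533 to 10868672, on chromosome 17 from 55511550 to 55511796 and on chromosome 7 from 115637744 to 115637923 (hg18, as are all positions given here). None of these 3 had a Jurkat SWEMBL interval.

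The intervals kept out by the smallest overlap with a Jurkat MACS peak were short ones that lay wholly inside it. Their small overlap reflected their length, so they were not borderline cases by position. The smallest overlaps were 51 bp on chromosome X from 2560652 to 2560702, 55 bp on chromosome 1 from 147482155 to 147482209 and 58 bp on chromosome 3 from 38181743 to 38181800. The Jurkat MACS scores there were 3100.00, 57.73 and 520.57. Among all 3375 Jurkat-shared sites, 415 (12.3%) had no Jurkat score of 100 or more in either replicate, and 683 (20.2%) had a Jurkat MACS peak in 1 replicate only. A part of the contrast between the groups therefore turned on weak Jurkat peaks.

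The sites without a Jurkat MACS peak had the lower VCaP scores. Their median score was 581 with R1881 (quartiles 330 and 1060, range 50.2 to 3192) and 591 with vehicle (quartiles 346 and 1055), against 1666 and 1645 at the Jurkat-shared sites. The intervals were also shorter, with a median of 178 bp against 313 bp. At the upper end, 16 sites (0.817%) in 12 MACS peaks stood at a score of 3100, where scores pile up, and 1 site exceeded it. At the Jurkat-shared sites, 432 (12.8%) were at or above 3100. Because both VCaP scores entered the choice, these values only describe it.

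Scores with R1881 and with vehicle were close at most sites. The log2 ratio of the R1881 score to the vehicle score had a median of -0.01, and it ran from -0.82 at the 5th percentile to 0.71 at the 95th. The score was over 2 times higher with R1881 at 49 sites and over 2 times higher with vehicle at 68, which left 1842 (94%) within 2 times. At Jurkat-shared sites, 23 and 30 of 3375 passed the same limits. The plot of scores shows the wider scatter at low scores. A score is a transformed p-value that also grows with sequencing depth, which these files do not give, so the ratio is no measure of a change in binding.

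**Figure D1:**
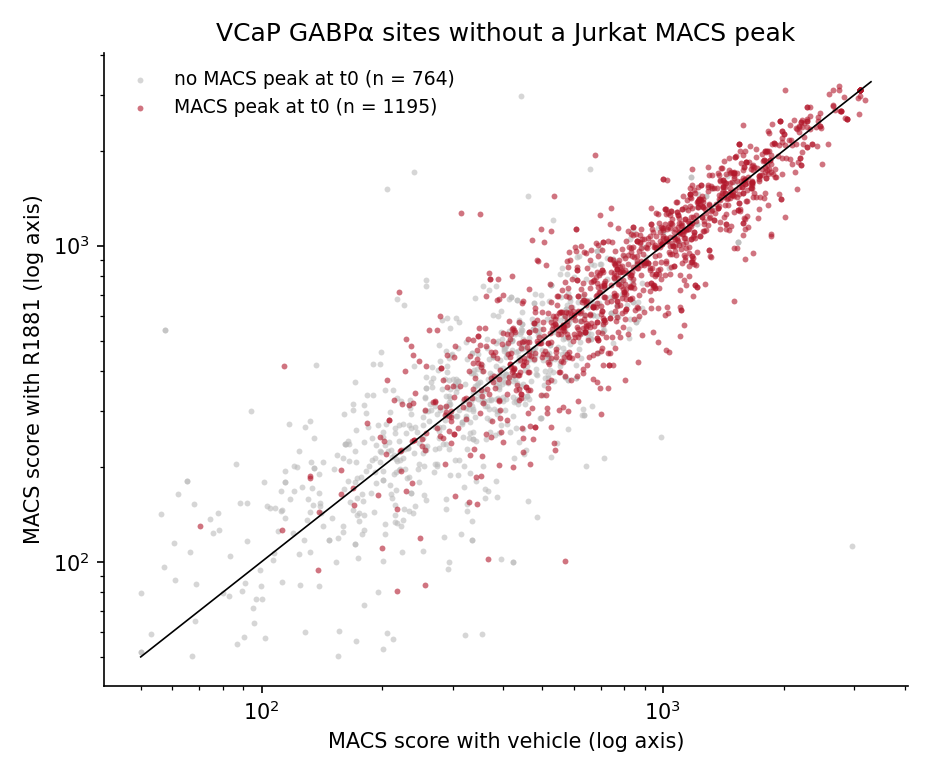
MACS score with R1881 (vertical, log axis) against MACS score with vehicle (horizontal, log axis) for the 1959 VCaP GABPα sites without a Jurkat MACS peak, 1 point per site, with the line of equal scores. The 1195 sites with a GABPα MACS peak at t0 (red) take up the upper range, and the 764 sites without one (grey) lie mostly at low scores and scatter more widely.

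The highest-scoring sites were found in all 3 VCaP conditions. Named by the lower of their R1881 and vehicle scores, the first 9 stood at 3100.00 in both samples. On chromosome 10, an interval from 134628515 to 134628657 lay in the MACS peak that held 4 sites, and its t0 score was 3070.20, the highest t0 score of all 1959. A site on chromosome 15 from 68971703 to 68972227 had a t0 score of 2320.62, and a site on chromosome 11 from 8666878 to 8667364 had one of 2226.61. On chromosome 19, the interval from 63643203 to 63643731 reached 2202.42 at t0 and that from 49146921 to 49147344 reached 1871.55. Over these 5, the gap to the nearest Jurkat MACS peak ran from 14890 bp at the site at 49146921 to 280074 bp at the site on chromosome 10. Smaller gaps of 8936 and 11211 bp were found at the top sites on chromosome 13 and on chromosome 19 at 16169388, described next. The median gap over all sites was 25390 bp.

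The other 5 strong sites had t0 scores from 616.20 to 2087.87. The site on chromosome X from 7855603 to 7855970 had a t0 score of 1925.57, that on chromosome 17 from 4922098 to 4922702 had 1418.85, and that on chromosome 12 from 132166746 to 132167101 had only 616.20. Both remaining sites had a Jurkat SWEMBL interval in each replicate despite the absence of a MACS peak. They were chromosome 13 from 30089785 to 30090258 (t0 score 2087.87) and chromosome 19 from 16169388 to 16169940 (R1881 score 2971.81, vehicle score 3100.00, t0 score 1527.46). In all, 10 of the 10 had a t0 MACS peak, 2 of the 10 had a Jurkat SWEMBL interval and 0 had a VCaP ERG MACS peak. Of all R1881 intervals scoring 1600 or over, 98.8% had a t0 MACS peak. An ERG MACS peak was present at 0.69% of those with vehicle and at 1.58% with R1881. The t0 and ERG counts are thus no trait of these 10 sites. Ranked by t0 score, 1 further site entered the first 5, on chromosome 12 from 107974496 to 107974924, where the t0 score of 2253.21 exceeded the R1881 and vehicle scores of 1576.44 and 1581.68. It too had a SWEMBL interval in both Jurkat replicates.

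The t0 sample did not enter the choice of sites, and it recovered fewer of them than of the Jurkat-shared sites. A GABPα MACS peak was present at t0 at 1195 sites (61%, interval 58.8 to 63.1%), compared with 3087 of 3375 Jurkat-shared sites (91.5%, interval 90.5 to 92.4%) and 75.7% of all 5987 R1881 intervals. At high confidence, the counts were 525 (26.8%, interval 24.9 to 28.8%) and 2174 (64.4%, interval 62.8 to 66%), with 45.7% of all R1881 intervals. Both differences were larger than the counting error. Where a t0 peak was called, its median score was 164 at the sites and 631 at Jurkat-shared sites.

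Recovery at t0 followed the R1881 score closely. Of sites scoring 50 to 200, 13% had a t0 MACS peak (27 of 208, interval 9.08 to 18.2%). The share was 32.2% (27.9 to 36.7%) at 200 to 400, 61.2% (57.3 to 65%) at 400 to 800, 90% (87.1 to 92.4%) at 800 to 1600 and 97.1% (93.9 to 98.7%) at 1600 and over. The gap to the Jurkat-shared sites was widest where scores were low. At the same scores, the Jurkat-shared sites reached 47.2% (17 of 36, 32 to 63%), 48.1% (40.4 to 55.9%), 71.4% (66.9 to 75.5%), 94.3% (92.7 to 95.6%) and 99.5% (99 to 99.7%). The 95% interval of the difference (Newcombe's method) excluded 0 in all 5 score ranges, and the difference was smallest at 1600 and over (-2.36 percentage points, -5.62 to -0.747). For high confidence intervals at t0, the difference was also widest at 50 to 200, where 3.37% and 27.8% had one (-24.4 points, -40.7 to -12). It was smallest at 200 to 400, where 3.76% and 7.05% had one and its interval included 0 (-3.3 points, -8.62 to 0.514). Above that it did not shrink with the score as the MACS difference did. It was -10.1 points both at 800 to 1600 (-15.4 to -4.7) and at 1600 and over (-16.7 to -4.33). Depth of the t0 sample is unknown, and its part in the missing peaks was not tested.

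**Figure D2:**
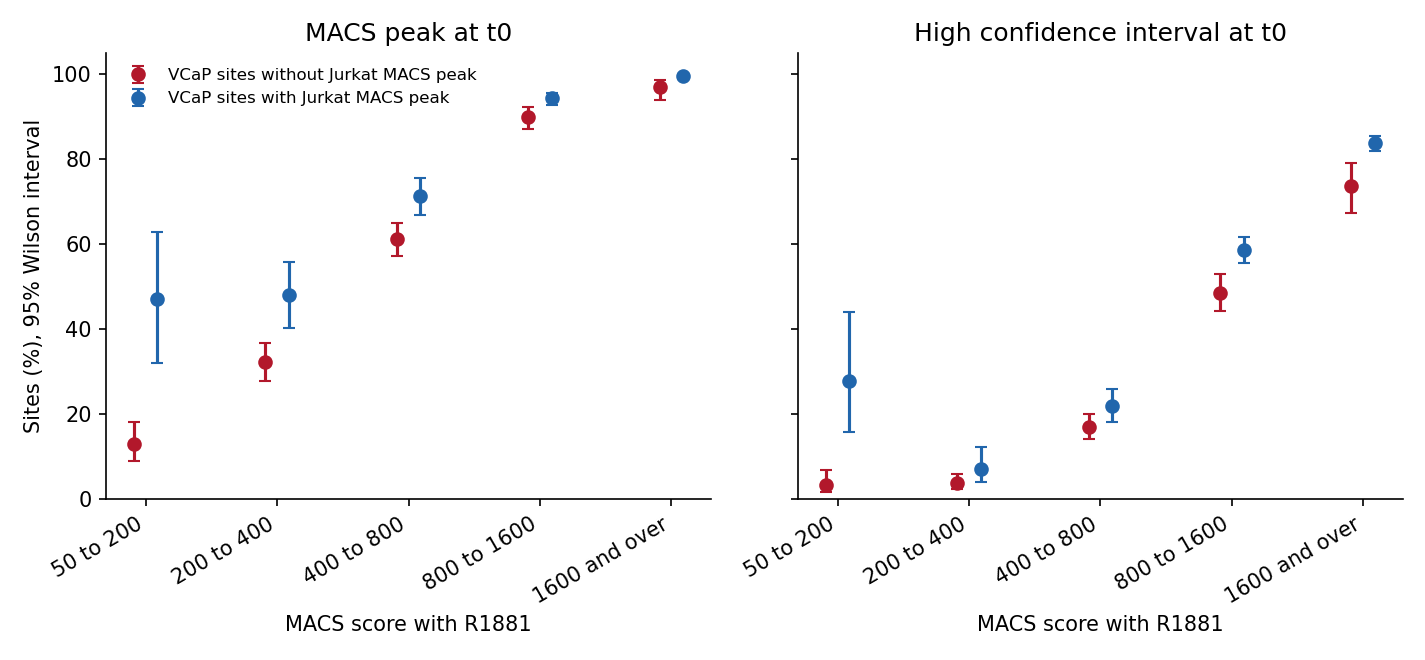
Share of VCaP GABPα sites (%) with a t0 MACS peak (left) and a t0 high confidence interval (right) by MACS score with R1881, for sites without (red) and with (blue) a Jurkat GABPα MACS peak. Points are shares and bars 95% Wilson intervals, and the MACS share of the sites without a Jurkat peak climbs from 13% in the lowest to 97.1% in the highest score range.

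The Jurkat SWEMBL intervals split the sites. A SWEMBL interval of Jurkat GABPα replicate 1 overlapped 934 of the 1959 (47.7%, interval 45.5 to 49.9%) and one of replicate 2 overlapped 680 (34.7%, interval 32.6 to 36.8%). Both replicates had one at 663 sites (33.8%, beside 63.7% of all R1881 intervals), exactly 1 replicate at 288, and neither at 1008. Of all R1881 intervals, 70.9% overlapped a SWEMBL interval of replicate 1, 64.7% one of replicate 2 and 71.9% one of either, so the share of 48.5% with either (interval 46.3 to 50.8%) was below that of the whole set but far above 0. These samples also gave the MACS peaks that the choice of sites used, and the shares are a description.

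Such intervals were common in the Jurkat GABPα samples as a whole and rare in VCaP. In Jurkat replicates 1 and 2, 2487 of 10775 (23.1%) and 2059 of 11828 (17.4%) SWEMBL intervals had no MACS peak of their own sample. In the VCaP GABPα samples, the corresponding shares were 2.43% with R1881, 2.54% with vehicle and 1.89% at t0. The sites without a Jurkat MACS peak thus include many regions on which both programs differed in Jurkat cells. The part of the Jurkat input or its depth in this was not tested.

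The split went with the strength of the site in VCaP cells. The 663 sites with a SWEMBL interval in both Jurkat replicates had a median R1881 score of 883 and a median length of 253 bp, the 288 with 1 had 455 and 150 bp, and the 1008 with none had 507 and 149 bp. A t0 MACS peak was present at 74.7% (interval 71.2 to 77.8%), 38.9% (33.4 to 44.6%) and 58.3% (55.3 to 61.3%) of them, respectively. The order at t0 therefore put the sites with a SWEMBL interval in 1 replicate last. Within score ranges, the contrast between sites with both and with none depended on the call used. For t0 MACS peaks, the interval of the difference excluded 0 only at 200 to 400, where the order was reversed, with 21.9% (14 to 32.7%) of the sites with both and 38% (32.5 to 43.9%) of those with none. At 800 to 1600, the shares were 92.2% (88.3 to 94.9%) and 89.6% (84.5 to 93.2%). For t0 high confidence intervals, the sites with both were higher at 50 to 200, 400 to 800 and 800 to 1600, in the last of these with 61.1% (55 to 66.8%) against 43% (36.2 to 50.1%).

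Strength alone did not order the SWEMBL share. It was 38% at R1881 scores of 50 to 200 (interval 31.7 to 44.7%), 35.2% at 200 to 400 (30.8 to 39.9%), 49.3% at 400 to 800 (45.4 to 53.3%), 61.6% at 800 to 1600 (57.2 to 65.7%) and 52.6% at 1600 and over (45.9 to 59.3%). The intervals of the lowest pair of ranges overlapped, as did those of the ranges on either side of 1600. Such overlap does not show that the shares were equal, and no interval was taken for these differences. Of the 209 strongest sites, 99 had no Jurkat interval by either program.

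**Figure D3:**
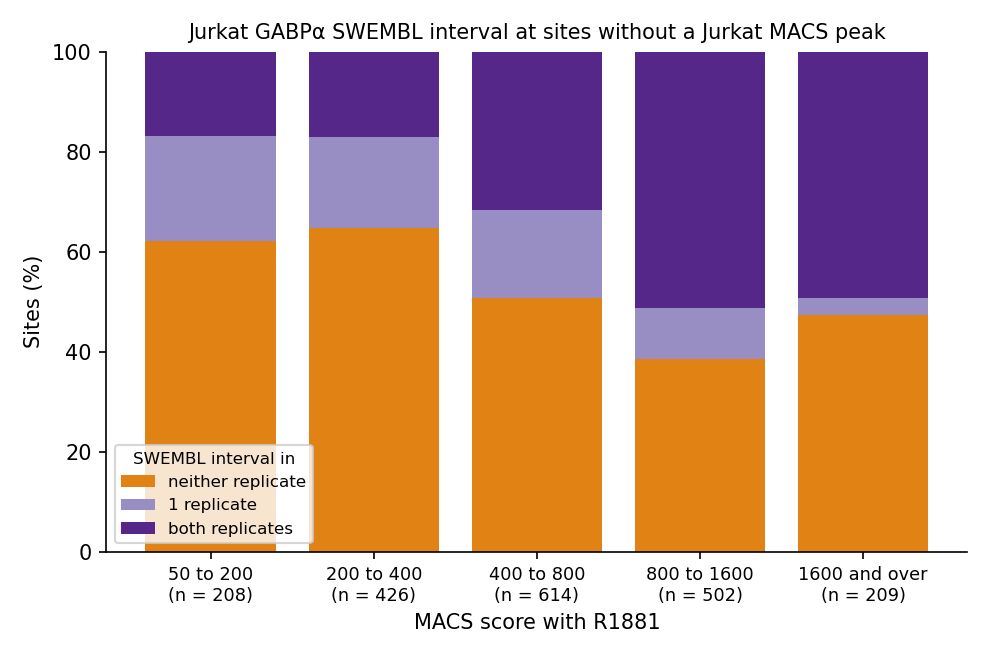
Share (%) of the VCaP GABPα sites without a Jurkat MACS peak that overlapped a Jurkat GABPα SWEMBL interval in neither, 1 or both replicates, by MACS score with R1881, with the number of sites under each bar. The part with an interval in both replicates grows from 16.8% in the lowest score range to 51.2% at 800 to 1600 and is 49.3% above 1600.

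ERG was measured in the same VCaP conditions, and the vehicle and t0 samples of ERG took no part in the choice. The R1881 sample did, and intervals with an ERG high confidence interval there were removed from both groups of sites. They remain among all R1881 GABPα intervals, so ERG shares over that whole set are not a like baseline. An ERG MACS peak with vehicle overlapped 103 of the 1959 sites (5.26%, interval 4.35 to 6.34%), close to the 5.93% of all R1881 GABPα intervals and above the 59 of 3375 Jurkat-shared sites (1.75%, interval 1.36 to 2.25%). Within score ranges, the interval of the last difference excluded 0 in 1 of the 5, at 800 to 1600 (2.26 percentage points, 0.538 to 4.45). Between 200 and 400, the shares were 7.04% (4.98 to 9.88%) and 8.97% (5.42 to 14.5%), between 400 and 800 they were 7.49% (5.66 to 9.85%) and 4.88% (3.22 to 7.35%), and between 800 and 1600 they were 3.98% (2.59 to 6.07%) and 1.72% (1.08 to 2.74%). In both groups the share was lowest at 1600 and over (0.478% and 0.283%), a range that held 209 of the 1959 sites and 1766 of the 3375 Jurkat-shared sites.

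The ERG peaks with vehicle at these sites had a median score of 123 and a range of 52.1 to 573, and the median was 123 also over all R1881 GABPα intervals and 110 at Jurkat-shared sites. An ERG high confidence interval with vehicle overlapped 8 of the sites (0.408%, interval 0.207 to 0.804%), beside 0.969% of all R1881 intervals. At t0, 6 sites had an ERG MACS peak (0.306%, interval 0.14 to 0.667%), beside 0.785% of all R1881 intervals. With R1881, 128 sites (6.53%) overlapped an ERG MACS peak but, by the choice, no ERG high confidence interval, beside 8.7% of all R1881 intervals with such a peak. Whether these peaks held a high confidence interval outside the site was not counted. An ERG MACS peak in both the R1881 and the vehicle sample was found at 84 sites (4.29%, beside 5.34%). In all, 147 sites (7.5%, beside 9.34% of all R1881 intervals) had an ERG MACS peak in at least 1 VCaP sample, so the choice did not remove every trace of ERG. Each of these shares over all R1881 intervals includes the intervals that the choice removed for ERG. ERG high confidence intervals of R1881-treated cells were far from most sites, with a median gap of 513737 bp against 529225 bp for Jurkat-shared sites. Only 13 sites (0.664%, interval 0.388 to 1.13%) and 4 Jurkat-shared sites (0.119%, interval 0.0461 to 0.304%) were within 1000 bp of one.

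The ERG peaks fell almost wholly on sites that had no Jurkat GABPα interval by either program. Of the 147 sites with a VCaP ERG MACS peak, 145 (98.6%, interval 95.2 to 99.6%) had no Jurkat SWEMBL interval, beside 1008 of all 1959 sites. With vehicle, an ERG MACS peak was present at 102 of the 1008 sites without a Jurkat SWEMBL interval (10.1%, interval 8.41 to 12.1%), at 1 of the 288 with an interval in 1 replicate (0.347%) and at 0 of the 663 with intervals in both, which allows a share of up to 0.452%. The difference between the first and the last group exceeded counting error. These ERG peaks were largely shared with the R1881 sample, since the share of 10.1% was 2.15% (19 of 882) when sites with any ERG R1881 MACS peak were removed. At matched GABPα scores, the interval of the difference excluded 0 in 3 of 5 ranges. The ERG share with vehicle was 10.9% (30 of 276) against 0 of 73 at 200 to 400, 14.5% (45 of 311) against 0 of 195 at 400 to 800, and 10.4% (20 of 193) against 0 of 257 at 800 to 1600. It included 0 at 50 to 200, with 6 of 129 against 0 of 35, and at 1600 and over, with 1 of 99 against 0 of 103.

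A like pattern was found where a Jurkat MACS peak was present. Among the Jurkat-shared sites, 16 of 179 without a Jurkat SWEMBL interval (8.94%) and 34 of 3034 with intervals in both replicates (1.12%) had an ERG MACS peak with vehicle. The contrast was thus present whether or not MACS called the site in Jurkat cells. Of the 1959 sites, 863 (44.1%) had neither a Jurkat SWEMBL interval nor a VCaP ERG MACS peak, and 480 of those (24.5% of the 1959) also had a t0 GABPα MACS peak. These 480 had a GABPα call in all 3 VCaP conditions, with no Jurkat GABPα interval from either program and no VCaP ERG MACS peak. The same joint counts were not taken over all R1881 intervals or the Jurkat-shared sites. The 863 and 480 are therefore a description and no result about the sites.

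**Figure D4:**
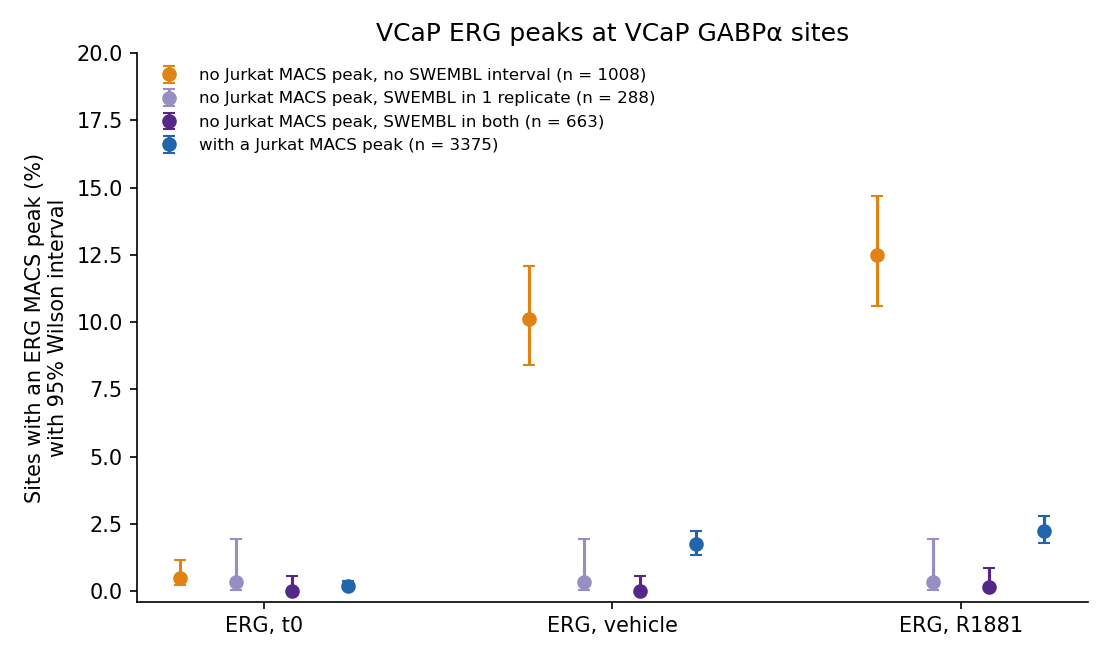
Share (%) of VCaP GABPα sites with a VCaP ERG MACS peak at t0, with vehicle and with R1881, for sites without a Jurkat MACS peak split by the number of Jurkat GABPα replicates with a SWEMBL interval (orange, light and dark purple) and for Jurkat-shared sites (blue), with 95% Wilson intervals. With vehicle, the shares were 10.1%, 0.347%, 0% and 1.75% in that order, and the ERG high confidence intervals with R1881 had been removed from all 4 groups by the choice.

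The 5 sites with the highest ERG scores with vehicle had GABPα scores with R1881 of 165.06 to 573.62, below the median of 581 over all sites. The highest ERG score with R1881, 587, was at none of these 5. The highest ERG vehicle score was 573.09, on chromosome 3 from 73582915 to 73583033, where ERG with R1881 scored 451.61 and GABPα scored 204.21 with R1881, 285.77 with vehicle and 101.62 at t0. The second was on chromosome 19 from 58817578 to 58817697, with ERG scores of 400.81 with vehicle and 229.44 with R1881, GABPα scores of 165.06 and 187.64 with R1881 and vehicle, and no GABPα peak at t0. At both, ERG scored above GABPα with vehicle, and both had an ERG high confidence interval with vehicle. The next 3 lay on chromosome 12 from 109040547 to 109040644 (ERG vehicle score 363.48, GABPα R1881 score 573.62, GABPα vehicle score 685.31, above the vehicle median of 591) and on chromosome 22 from 44953421 to 44953574 (324.61, 397.43 and 464.80) and from 23620626 to 23620852 (320.48, 361.88 and 432.69). None of the 5 had a Jurkat GABPα SWEMBL interval.

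Jurkat ERG was nearly absent from these sites. A MACS peak of Jurkat ERG replicate 1 overlapped 0 of the 1959, which allows a share of up to 0.153%, and a peak of replicate 2 overlapped 1 (0.051%). Of all R1881 intervals, 0.234% and 0.885% overlapped one, and of the Jurkat-shared sites 8 (0.237%) and 34 (1.01%, interval 0.722 to 1.4%). SWEMBL intervals of Jurkat ERG replicate 2 and of VCaP ERG with vehicle, with or without a MACS peak, overlapped 5 (0.255%) and 4 (0.204%) of the 1959, beside 0.985% and 0.869% of all R1881 intervals. For MACS peaks of replicate 2, the difference from the Jurkat-shared sites exceeded counting error. Those sites were chosen for a Jurkat GABPα MACS peak and the 1959 for the lack of one. The part of that choice in the difference was not tested. The single site, on chromosome 12 from 95419043 to 95419199, had a Jurkat ERG score of 59.36, ERG scores of 94.85 with vehicle and 137.14 with R1881 in VCaP cells, and GABPα scores of 533.76 and 463.32.

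The sites were spread over the autosomes and were few on the X chromosome. Among R1881 intervals found with vehicle and without ERG, 1936 of 5157 on autosomes (37.5%, interval 36.2 to 38.9%) had no Jurkat MACS peak. Single autosomes ranged from 32.5% on chromosome 14 to 46.7% on chromosome 13. On the X chromosome, the share was 19 of 147 (12.9%, interval 8.43 to 19.3%), below every autosome. A Jurkat SWEMBL interval was present at 49% of the autosomal sites and at 1 of the 19 on X (5.26%, interval 0.935 to 24.6%). Jurkat SWEMBL intervals without a MACS peak were themselves fewer on X, at 2.36% and 4.21% of the SWEMBL intervals there in replicates 1 and 2, against 23.6% and 17.8% on autosomes. On chromosome Y, 0 of 9 intervals were without a Jurkat MACS peak, and 4 sites lay on unplaced sequences.

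**Figure D5:**
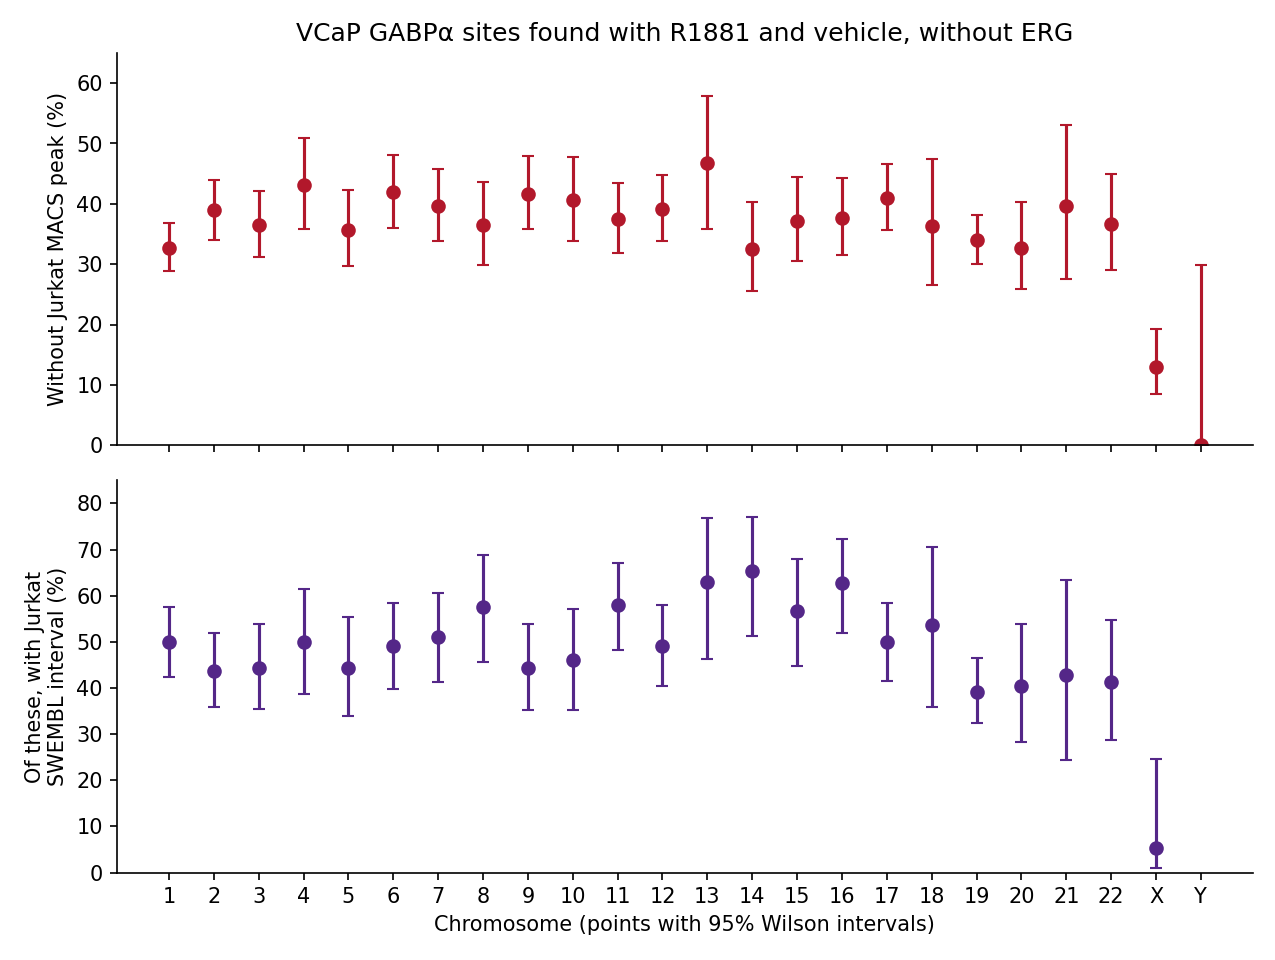
Upper panel, share (%) of VCaP GABPα intervals found with R1881 and vehicle and without ERG that had no Jurkat GABPα MACS peak, by chromosome. Lower panel, share (%) of the latter with a Jurkat SWEMBL interval. Bars are 95% Wilson intervals, and the X chromosome lies at 12.9% in the upper and at 5.26% in the lower panel.

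The 3 stretches of up to 1 Mb that held the most sites differed in their Jurkat intervals. Whether the sites group along chromosomes more than other GABPα intervals do was not tested. The stretches were picked for many sites, so a high share without a Jurkat MACS peak follows from the choice. Over the whole of chromosomes 19, 6 and 17, that share was 34%, 41.9% and 41%. On chromosome 19 from 49016493 to 49644713, 14 of 25 intervals found with R1881 and vehicle and without ERG (56%) had no Jurkat MACS peak. The 14 lay in 12 MACS peaks, and 0 of the 14 had a Jurkat SWEMBL interval. Their median R1881 score was 2130, far above the 581 of all sites, and 12 of the 14 had a t0 MACS peak. Among them were the site at 49146921 named above, 49267824 to 49268332 (3025 with R1881, 2590 with vehicle and 1763 at t0) and 49247557 to 49248186 (2924, 3063 and 1671). Others in the same stretch were 49552508 to 49552746 (2394, 2462 and 1905), 49644299 to 49644713 (2369, 2227 and 1052) and 49179912 to 49180348 (2355, 2477 and 868). The weakest, from 49567987 to 49568052, scored 165 and 139 and had no t0 peak. The other site without a t0 peak, from 49016493 to 49016792, scored 815 and 555. The stretch thus combined mostly strong GABPα sites, 12 of the 14 with a peak in all 3 VCaP conditions, with no Jurkat SWEMBL interval. The lack of a Jurkat MACS peak at the 14 was fixed by the choice.

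A second such stretch lay on chromosome 6 from 28200156 to 29081485, where 12 of 18 such intervals (66.7%) had no Jurkat MACS peak and lay in 10 MACS peaks. The median R1881 score was 1459, 9 had a t0 MACS peak and 1 had a Jurkat SWEMBL interval. The highest score there was 2525 with R1881 and 2868 with vehicle, in a MACS peak that held 3 of the sites between 28294328 and 28295015 and scored 519 at t0. The site from 28200156 to 28200491 scored 1952, 1761 and 727 with R1881, with vehicle and at t0, and that from 28237379 to 28237659 scored 1776, 1794 and 752. The one with a Jurkat SWEMBL interval, in both replicates, ran from 28999660 to 28999937 and scored 1440, 1503 and 119.

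The stretch on chromosome 17 from 77096959 to 77824886 was different. It held 14 sites among 22 such intervals (63.6%), in 11 MACS peaks, with a median R1881 score of 558, near that of all sites, and 9 with a t0 peak. Of the 14, 7 had a Jurkat SWEMBL interval, among them the strongest, from 77616912 to 77617199 (1582, 1432 and 460) and from 77243931 to 77244305 (1455, 1468 and 1156). The 7 without one scored 190 to 620 with R1881. These 3 stretches were named because they held the most sites, and the genes in them are not given, as no annotation of hg18 was used here.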

How the data were processed

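ChIP-seq peak files of 6 VCaP and 4 Jurkat samples were used, and 6 input samples had no file used here. Per the labels and the study's methods, the authors aligned reads to hg18 with BWA 0.5.5, removed reads with an alignment quality under 15 and duplicates, and called peaks per sample against input with MACS and SWEMBL. Versions of MACS and SWEMBL are not given in the sources used here. The deposited score of a MACS peak is the −log10 of its p-value times 10, and the high confidence intervals of 7 samples carry the score of their MACS peak. In those 7 files, the intervals were identical to the SWEMBL intervals that overlap a MACS peak of the same sample. The high confidence files of ERG at t0, ERG with vehicle and Jurkat ERG replicate 1 hold another column of whole numbers whose meaning is not stated. It was left aside, and ERG was therefore described mainly by MACS peaks. No file states how many reads a library had, and depth is therefore unknown for every sample.

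Intervals were matched where they shared 1 bp or more, in Python 3.11.15 (numpy 2.4.6, scipy 1.17.1, figures with matplotlib 3.10.9), and the overlap function was tested against bedtools 2.31.1 on simulated intervals. Intervals of shares are 95% Wilson intervals, and for counts of 0 the limit is 3 counts. Intervals of differences in share within score ranges follow Newcombe's method and were added after the data had been seen. All cover counting error only, and neighbouring intervals in 1 MACS peak are not independent. The sites, score ranges and comparisons were chosen with earlier results of these data known. Regions were named by a rule. It took the 10 with the highest lower value of R1881 and vehicle scores. It also took the 5 highest at t0, in VCaP ERG with vehicle and in Jurkat ERG (where 1 had a peak). Last came the 3 nearest a Jurkat MACS peak, the 3 kept out by the smallest overlap with one, and the 3 largest groups within 1 Mb. Ties were taken by position. The alternatives were a 50% overlap, whole MACS peaks, a minimum score of 100, other Jurkat and ERG criteria, a distance of 1000 bp, leaving out each Jurkat replicate, and exchanged roles of R1881 and vehicle. Genes, promoters and sequences were left out because no hg18 genome or annotation was given.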

Additional observations from a re-analysis of the deposited data

Results flagged for a closer look

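SWEMBL intervals stand outside the MACS and high confidence calls on which the comparisons rest. A SWEMBL interval of Jurkat GABPα overlapped 934 of the 1959 sites in replicate 1 and 680 in replicate 2, although no MACS peak of either replicate did. SWEMBL intervals of VCaP ERG with vehicle and of Jurkat ERG replicate 2 overlapped 4 (0.204%) and 5 (0.255%) of the sites, above the limit of 3 that a count of 0 allows. Both shares were below the 0.869% and 0.985% found over all 5987 R1881 GABPα intervals, so these counts are no result about the sites.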

How the results depend on the processing

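The number of sites, 1959, ran from 1750 with whole MACS peaks to 2146 with Jurkat high confidence intervals in place of MACS peaks, and fell to 1008 once sites with a Jurkat SWEMBL interval were removed. That removal moved the t0 MACS share from 61% to 58.3%, the t0 high confidence share from 26.8% to 20.6% and the ERG vehicle share from 5.26% to 10.1%. Removing sites with any ERG R1881 MACS peak lowered the ERG vehicle share to 1.04% of all sites and 2.15% of those without a Jurkat SWEMBL interval, and the Jurkat ERG share to 0%. The Jurkat SWEMBL share became 51.8% under that criterion, 51.3% with whole MACS peaks and 44.7% with Jurkat high confidence intervals. Without one or the other Jurkat replicate, the number was 2284 to 2317, the t0 MACS share 62.6 to 65.5%, the t0 high confidence share 27.5 to 32.8%, the SWEMBL share 53.2 to 55.8%, the ERG vehicle share 4.62 to 4.64% (9.81 to 10.1% of sites without a SWEMBL interval) and the Jurkat ERG share 0.0432 to 0.0438%. Under the other alternatives, the number stayed within 1.5 times and the shares within the interval of the reported value. Alternatives for the SWEMBL share, and for the ERG share of sites without a SWEMBL interval, were chosen after seeing the data. No paired analysis was possible because no result comes from a test over samples and each VCaP condition has 1 sample. Unknown depth limits every statement on missing peaks.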
